A study of Homo sapiens with 12 samples.

Results

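The 9 genes described here are the chemokines CCL2 and CXCL8, the cytokines IL1A, IL1B, IL6 and LIF, the prostaglandin synthase PTGS2, and NFKBIA and TNFAIP3, inhibitors of NF-kB signalling. They were taken by name, out of 14232 genes measured in LN229, an established human glioblastoma line. The probe set that the platform annotation pairs with the gene's symbol alone gave its level, and IL6, which had 2 such probe sets, was read from the one with the higher mean. The names were chosen because PTGS2 and IL1A had moved opposite to CCL2 in these arrays, in a comparison that the rule of choice did not name. The levels in hypoxia against normoxia are given below as a description, with no test.

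All cells of the study were LN229 and all carried an siRNA, put in 24 h after plating. From 48 h after transfection, cells were held for 16 h in 20% oxygen with a non-targeting control siRNA (normoxia), or in 1% oxygen (hypoxia) with the control siRNA, an siRNA against HIF1A or an siRNA against HIF2A, whose gene symbol is EPAS1. Each of the 4 groups had 3 exon arrays, and no siRNA against either factor was tested in normoxia. Whether the 3 are separate cultures is not said in the labels, and each p-value below reflects only how far these arrays differ, a spread that may be technical. The design set each hypoxic group against normoxia, to ask which hypoxic responses depend on HIF-1A and which on HIF-2A.

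HIF-1A and HIF-2A are the subunits of the hypoxia-inducible transcription factors that accumulate when oxygen is low, and they bind a short DNA core in the regulatory regions of their targets. Inflammatory cytokine genes are classic targets of NF-kB, a factor held in the cytoplasm by IkB proteins such as the product of NFKBIA, and of AP-1. IL-1 binds its receptor on neighbouring cells and switches on NF-kB, which raises CCL2, CXCL8, IL6, LIF and PTGS2 in many cell types, and NFKBIA and TNFAIP3 as feedback inhibitors. In glioblastoma, CCL2 draws in monocytes and microglia, CXCL8 acts on neutrophils and endothelium, and PTGS2 makes the precursor of prostaglandin E2.

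Promoter windows are shown for the 4 genes that had a sequence in the promoter table used and that differed between the HIF1A and HIF2A siRNA groups in the tests below. Each window is the 250 bases before the RefSeq start of the gene in GRCh38.p14 (for IL1A, which has 2 starts in the table, the first listed), on the gene's own strand and 5′ to 3′, and the capitals mark matches, on either strand, to the core of the hypoxia response element (ACGTG or GCGTG), to the kappaB site of NF-kB, to the AP-1 site TGANTCA or to the TATA box TATAAA. Of the 9 genes, 7 were in that table. The windows lie at chr1:186680424-186680673 (PTGS2), chr2:112784494-112784743 (IL1A) and chr2:112836780-112837029 (IL1B) on the minus strand, and at chr6:137867009-137867258 (TNFAIP3) on the plus strand.
PTGS2: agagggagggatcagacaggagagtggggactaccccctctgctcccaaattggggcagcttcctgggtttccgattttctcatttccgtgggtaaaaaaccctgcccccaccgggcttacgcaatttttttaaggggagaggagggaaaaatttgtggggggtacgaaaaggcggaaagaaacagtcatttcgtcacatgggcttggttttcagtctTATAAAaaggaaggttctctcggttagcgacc
IL1A: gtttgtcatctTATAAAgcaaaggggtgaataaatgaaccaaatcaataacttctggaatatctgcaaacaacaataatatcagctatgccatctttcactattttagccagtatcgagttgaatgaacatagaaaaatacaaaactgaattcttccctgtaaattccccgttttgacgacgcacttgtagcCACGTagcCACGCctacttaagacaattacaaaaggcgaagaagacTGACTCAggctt
IL1B: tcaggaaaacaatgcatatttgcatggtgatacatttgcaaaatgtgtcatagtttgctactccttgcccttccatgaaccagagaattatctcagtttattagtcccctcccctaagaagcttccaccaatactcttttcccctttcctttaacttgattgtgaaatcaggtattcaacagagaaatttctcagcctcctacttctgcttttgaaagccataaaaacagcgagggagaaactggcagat
TNFAIP3: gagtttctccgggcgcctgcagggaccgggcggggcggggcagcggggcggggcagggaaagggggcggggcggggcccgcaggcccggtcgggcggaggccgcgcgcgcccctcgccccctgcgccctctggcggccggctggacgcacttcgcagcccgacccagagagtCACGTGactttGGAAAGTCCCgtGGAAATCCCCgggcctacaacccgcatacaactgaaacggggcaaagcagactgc

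The IL1A window holds 2 hypoxia response element cores, at -58 to -54 and -50 to -46 from the start, an AP-1 match at -12 to -6 and a TATAAA far upstream at -239. The TNFAIP3 window holds 1 place with that core, read on both strands of CACGTG at -78 to -73, directly before 2 kappaB matches at -67 to -58 and -55 to -46. The kappaB pattern searched was GGGRNWYYCC (R is A or G, N any base, W A or T, Y C or T). Of the 4 patterns, the PTGS2 window matched only the TATA box, at -32, and the IL1B window matched none. A site that departs from a pattern by a letter is not marked, so a window without a match may still hold one. Of 35114 promoter windows of the same length, 43.2% hold the hypoxia core, 5.21% a kappaB match, 6.57% an AP-1 match and 10.7% TATAAA. Among the other members, the windows of IL6 and NFKBIA each hold 1 kappaB match, at -73 and -81, and the second also a TATA box. That of CXCL8 holds an AP-1 match at -137 and a TATA box at -31. The matches are letters in a window and were not tested as binding sites.

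The targeted transcripts fell with their siRNA, HIF1A by a log2 difference of -3.13 with HIF1A siRNA (limma adjusted p = 1.6e-04) and EPAS1 by -2.59 with HIF2A siRNA (adjusted p = 3.1e-05), each on all 3 arrays. EPAS1 was also lower with HIF1A siRNA (-1.48, adjusted p = 3.1e-04), so that group had less of both transcripts than the hypoxic control. The line expressed VIM, NES, S100B and CD44, while GFAP was at 6.37 and AQP4 and SLC1A3 lay below the lower quartile of gene means (5.32). Of 8 measured myeloid and microglial markers 7 lay below that quartile, PTPRC at 2.45, and limma called 0; their summed level ran from 33.8 to 34.7 in normoxia, 32.6 to 35.2 in the hypoxic control, 34.6 to 35.0 with HIF1A siRNA and 33.4 to 34.0 with HIF2A siRNA. Summed lymphocyte markers (7 measured, 4 below the quartile) ran from 36.9 to 37.2 with HIF1A siRNA against 33.9 to 36.2 in the other 3 groups, with MS4A1 called 0.99 above control siRNA. Summed endothelial markers (7 measured, 2 below) ran from 37.7 to 38.3 against 36.3 to 37.6, with 0 called. The summed level of 8 measured glial markers overlapped in all groups, from 64.1 to 65.5. Among them, limma called S100B lower in hypoxia (-0.63) and higher with HIF1A siRNA than with control siRNA (0.85) or HIF2A siRNA (0.65), and NES lower in hypoxia (-0.41). The part of these markers in the results was not tested. The HIF1A siRNA arrays had the lowest medians (6.68, 6.69 and 6.49, against 6.7 to 6.82 on the other 9) and the lowest upper quartiles (8.22, 8.2 and 7.88, against 8.24 to 8.57), with replicate 3 lowest in both. Array scale thus differed with this group, and the split of all genes into higher and lower moved with rescaling of the arrays, as given below.

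Levels are log2 expression as deposited, so a difference of 1 is 2-fold. A gene's level is set only against its own level in other groups, since probes differ in brightness. Values of replicates 1, 2 and 3 are given in that order. The tests compare HIF1A siRNA with HIF2A siRNA, both in hypoxia, whose means use none of the normoxic or hypoxic control arrays. They also compare each siRNA with control siRNA in hypoxia, which uses the 3 hypoxic control arrays. The genes were chosen with results of these data known, and PTGS2 and IL1A also moved opposite to CCL2 between the siRNAs. Genes chosen for a large difference in some arrays tend to differ in them again. For the chosen genes, p-values in all these tests may thus be too small. A gene was called when limma's p, adjusted by Benjamini and Hochberg over all 14232 genes, was under 0.05.

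**Figure D1:**
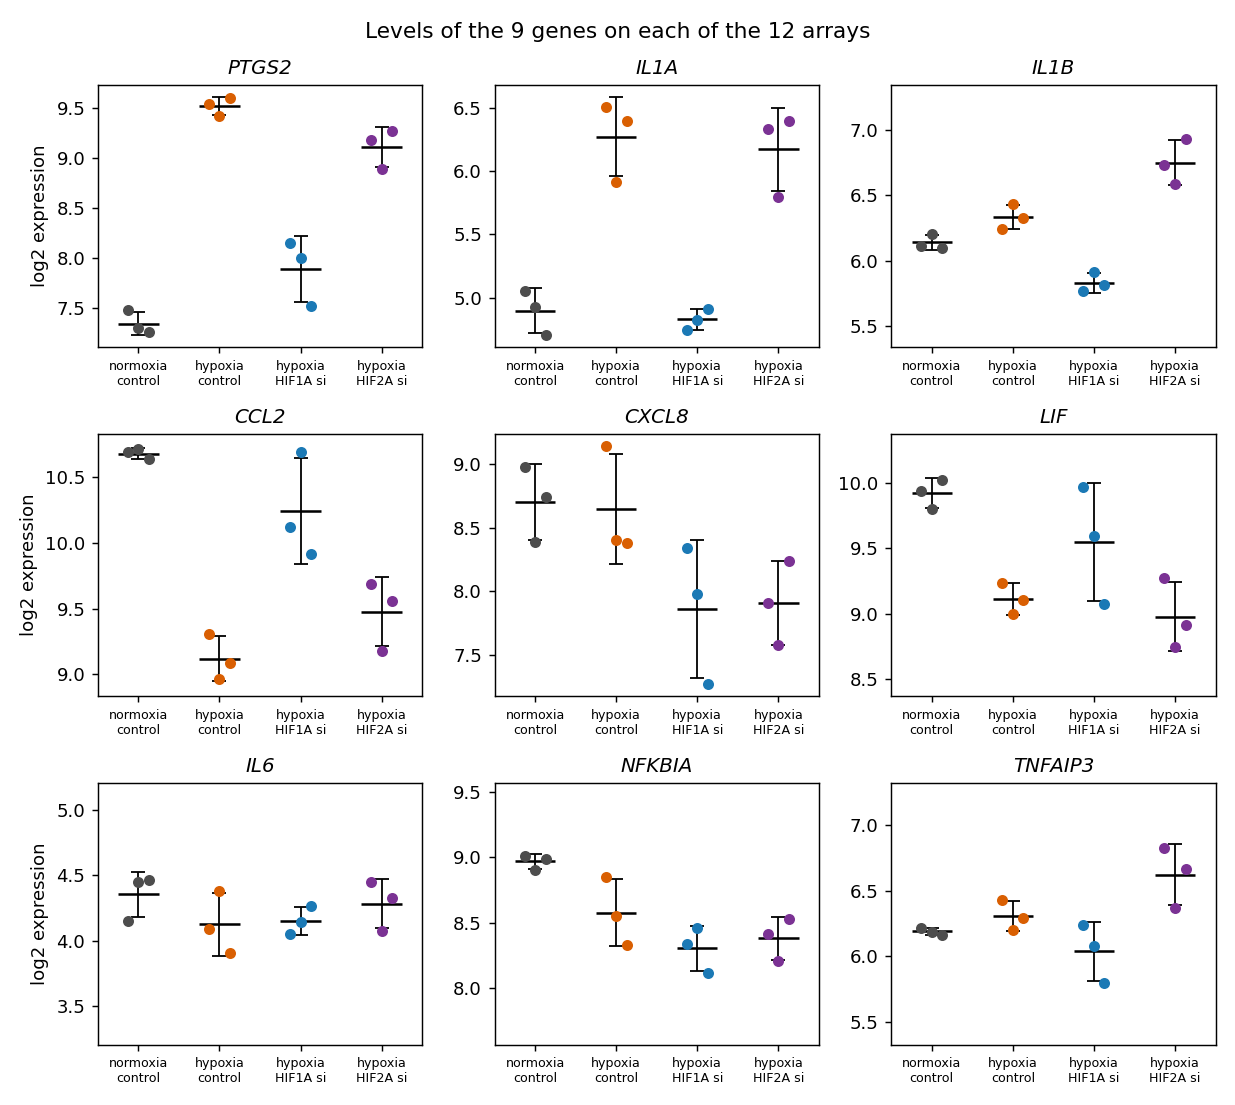
Log2 expression (y axis, its own range in each panel) of the 9 genes on each of the 12 arrays, grouped by oxygen and siRNA (x axis). Points are arrays, the long bar is the mean and the error bars are the SD of the 3 arrays; PTGS2 and IL1A are low in normoxia and with HIF1A siRNA and high in the other 2 hypoxic groups, and CCL2 shows the opposite order.

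PTGS2, the inducible cyclooxygenase that commits arachidonic acid to prostaglandins (probe set 2448382), measured 7.48, 7.30 and 7.26 in normoxia and 9.54, 9.42 and 9.60 in hypoxia with control siRNA. It measured 8.15, 8.0 and 7.52 with HIF1A siRNA and 9.18, 8.89 and 9.27 with HIF2A siRNA. The order of the 4 groups was normoxia, HIF1A siRNA, HIF2A siRNA and hypoxic control, with no overlap between neighbours. The hypoxic control mean was 4.51-fold above normoxia (2.17 on the log2 scale, SE 0.16). PTGS2 was 2.34-fold lower with HIF1A siRNA than with HIF2A siRNA (log2 difference -1.22, SE 0.16, n = 3 per group, limma adjusted p = 0.0016), and 3.10-fold lower with HIF1A siRNA than with control siRNA (-1.63, SE 0.16, adjusted p = 3.0e-04). With HIF2A siRNA all 3 arrays lay below the control arrays, with a mean difference of -0.41, which was not called (limma unadjusted p = 0.028, adjusted p = 1.0). The difference from normoxia that was left with HIF1A siRNA was 25% of that in the hypoxic control, and with HIF2A siRNA 81.3%. The first share is sensitive to array scale: the HIF1A siRNA group stood 0.54 above normoxia as deposited, 0.90 after quantile normalization (39.5% left) and 0.97 after cyclic loess (41.4% left). Fewer cells expressing a gene and less of its RNA per cell cannot be told apart in RNA from whole cultures, here and for every gene below.

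IL1A, an IL-1 form that cells hold as an active precursor and release on damage (probe set 2571483), measured 5.06, 4.93 and 4.70 in normoxia and 6.51, 5.92 and 6.39 in hypoxia with control siRNA. With HIF1A siRNA it measured 4.75, 4.83 and 4.91, inside the normoxic range, and with HIF2A siRNA 6.33, 5.80 and 6.39, which overlaps the hypoxic control. The 4 groups thus form a low pair and a high pair, with 2.59-fold between normoxia and the hypoxic control (1.38 on the log2 scale, SE 0.19). IL1A was 2.54-fold lower with HIF1A siRNA than with HIF2A siRNA (log2 difference -1.34, SE 0.19, adjusted p = 0.0023) and 2.72-fold lower than with control siRNA (-1.44, SE 0.19, adjusted p = 0.0014), on all 3 arrays each time. HIF2A siRNA differed from control siRNA by -0.10, with a 95% confidence interval from -0.51 to 0.31. The probe set is dim, with 27.9% of genes below it in mean level, and the deposited values carry no measure of background, so the low pair may be near a floor; that was not tested.

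IL1B, the secreted IL-1 form that needs processing by an inflammasome (probe set 2571510), differed from IL1A in the order of the groups, although the levels of both correlated at r = 0.78 over the 12 arrays. It measured 6.12, 6.21 and 6.10 in normoxia, 6.24, 6.43 and 6.33 in hypoxia with control siRNA, 5.77, 5.91 and 5.81 with HIF1A siRNA and 6.73, 6.58 and 6.92 with HIF2A siRNA. HIF1A siRNA had the lowest levels and HIF2A siRNA the highest, and no group overlapped another. The hypoxic control was 1.14-fold above normoxia. Between the siRNAs IL1B was 1.89-fold lower with HIF1A siRNA (log2 difference -0.92, SE 0.11, adjusted p = 9.2e-04). The controls lay between: HIF1A siRNA was lower than control siRNA (-0.50, SE 0.11, adjusted p = 0.015), a call that was lost when only those 2 groups entered the fit (adjusted p = 0.11). HIF2A siRNA stood above control siRNA by 0.41 (SE 0.11) on all 3 arrays, not called (limma unadjusted p = 0.0024, adjusted p = 0.92).

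CCL2, the monocyte-attracting chemokine (probe set 7385547), had the reverse order of PTGS2. Normoxic arrays were at 10.70, 10.71 and 10.64, hypoxic control arrays at 9.31, 8.96 and 9.08, HIF1A siRNA arrays at 10.12, 10.70 and 9.91 and HIF2A siRNA arrays at 9.69, 9.18 and 9.56. Normoxia was highest and overlapped with HIF1A siRNA replicate 2, and the hypoxic control was lowest and overlapped with HIF2A siRNA replicate 2. The hypoxic control mean was 2.96-fold below normoxia (log2 difference -1.56, SE 0.19). With HIF1A siRNA CCL2 was 2.18-fold above control siRNA (1.13, SE 0.19, adjusted p = 0.0063, all 3 arrays above the controls). This call was lost when only the 2 groups were fitted (adjusted p = 0.073). It was 1.71-fold above HIF2A siRNA (0.77, SE 0.19, adjusted p = 0.035), with no overlap of the groups, but that call was lost in 9 of 21 alternatives. Among them were leaving out hypoxic control replicate 3, any HIF2A siRNA replicate or any normoxia replicate, where the adjusted p reached up to 0.101, and the fit of only the 2 groups (adjusted p = 0.152). HIF2A siRNA differed from control siRNA by 0.36 (95% confidence interval -0.07 to 0.78). The deficit against normoxia that remained was 27.9% with HIF1A siRNA and 77.2% with HIF2A siRNA; the first share was 9.4% after quantile normalization and 4.3% after cyclic loess.

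CXCL8, the neutrophil-attracting chemokine also known as IL-8 (probe set 2731332), did not follow CCL2. It measured 8.98, 8.39 and 8.74 in normoxia and 9.15, 8.41 and 8.38 in hypoxia with control siRNA, 2 groups that overlap and differ by -0.06 (SE 0.30). With HIF1A siRNA it measured 8.34, 7.98 and 7.27 and with HIF2A siRNA 7.91, 7.58 and 8.24. Both siRNA groups lay below both control groups on every array. HIF1A siRNA differed from control siRNA by -0.78 (SE 0.30, adjusted p = 0.107) and HIF2A siRNA by -0.74 (SE 0.30, unadjusted p = 0.030), neither called. Between the siRNAs the difference was -0.05 (95% confidence interval -0.70 to 0.61), whose sign turned with quantile normalization, cyclic loess and median centring. The SE of 0.30 was the largest of the 9 genes, with group SDs from 0.30 to 0.55.

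LIF, a cytokine of the IL-6 family that maintains stem-like states (probe set 3957160), was at 9.94, 9.80 and 10.02 in normoxia and 9.24, 9.0 and 9.10 in hypoxia with control siRNA, 1.75-fold lower with no overlap. With HIF1A siRNA it measured 9.97, 9.59 and 9.08, a spread that reached from the normoxic to the hypoxic control range. With HIF2A siRNA it measured 9.27, 8.75 and 8.92 and overlapped the hypoxic control. The difference between HIF1A and HIF2A siRNA was 0.57 (95% confidence interval 0.12 to 1.02, adjusted p = 0.093), not called. It was called after quantile normalization (0.83, adjusted p = 0.0059), cyclic loess (0.82, adjusted p = 0.0050) and median centring (0.71, adjusted p = 0.028), and without HIF1A siRNA replicate 3 (0.80, adjusted p = 0.034). HIF1A siRNA against control siRNA gave 0.43 (adjusted p = 0.174), also called after quantile normalization (0.69, adjusted p = 0.012) and cyclic loess (0.68, adjusted p = 0.011). IL6, the name-giving cytokine of that family (probe set 2992576), stayed between 3.90 and 4.46 on all 12 arrays, below the lower quartile of gene means, and all group ranges overlapped. Its other probe set ran from 3.67 to 4.70. No difference in IL6 was called between the hypoxic groups.

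The 2 feedback inhibitors behaved differently from each other. NFKBIA, which encodes IkB-alpha (probe set 3561039), was at 9.01, 8.91 and 8.99 in normoxia and lower in every hypoxic array, at 8.85, 8.55 and 8.33 with control siRNA, 8.34, 8.46 and 8.11 with HIF1A siRNA and 8.41, 8.21 and 8.53 with HIF2A siRNA. The 3 hypoxic groups overlapped, and the siRNAs differed by -0.08 (95% confidence interval -0.40 to 0.24), a sign that turned with the 3 rescalings. TNFAIP3, which encodes the ubiquitin-editing enzyme A20 (probe set 2927506), was at 6.22, 6.19 and 6.16 in normoxia and overlapped with the hypoxic control at 6.43, 6.20 and 6.29. It measured 6.24, 6.08 and 5.80 with HIF1A siRNA and 6.83, 6.37 and 6.66 with HIF2A siRNA, lower with the first (log2 difference -0.58, SE 0.14, limma adjusted p = 0.030) with no overlap. That call was lost without HIF1A siRNA replicate 3, HIF2A siRNA replicate 1 or 3, or normoxia replicate 3 (adjusted p up to 0.123), and with only the 2 groups fitted (adjusted p = 0.15). Against control siRNA neither siRNA was called for TNFAIP3, at -0.27 and 0.32.

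**Figure D2:**
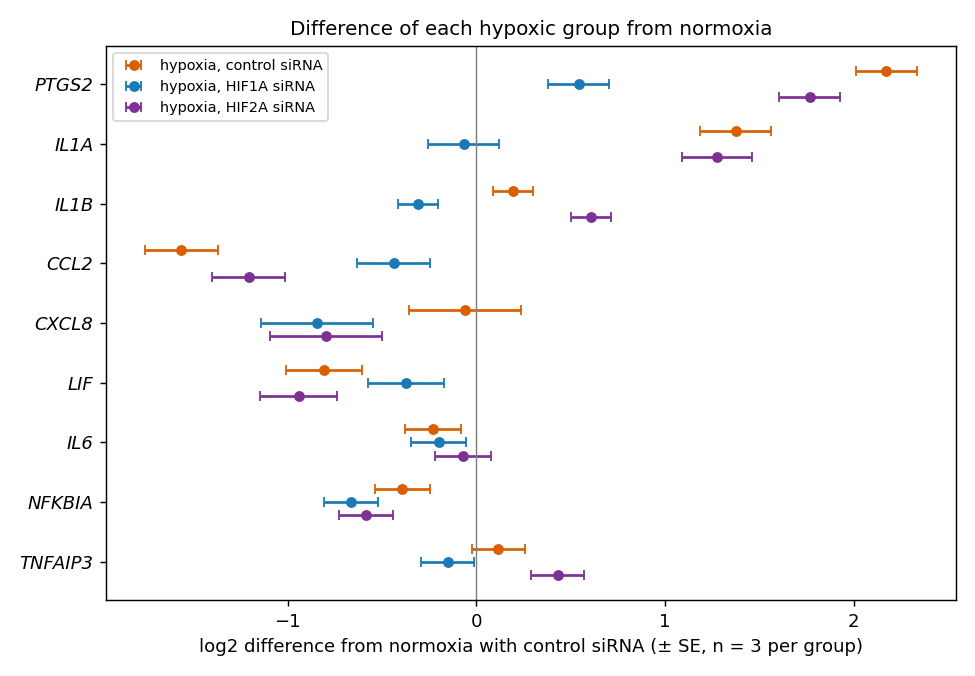
Log2 difference of each hypoxic group from normoxia with control siRNA (x axis) for the 9 genes (y axis); points are differences of means of 3 arrays and bars are ± SE. In the hypoxic control PTGS2 and IL1A stand at 2.17 and 1.38 and CCL2 and LIF at -1.56 and -0.81, and with HIF1A siRNA IL1A is at -0.07.

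In the hypoxic control, 2 of the 9 genes were at least 1.5-fold above normoxia (PTGS2, IL1A) and 2 at least 1.5-fold below (CCL2, LIF). Of all genes 2.52% and 7.46% were, and the choice of the 9 genes may have fixed their counts. With HIF1A siRNA 0 were above and 2 were below by that much, CXCL8 at -0.84 and NFKBIA at -0.66 (0.759% and 21.2% of all genes). Those counts depended on array scale. PTGS2 with HIF1A siRNA, 0.54 above normoxia as deposited, passed 1.5-fold after quantile normalization (0.90), cyclic loess (0.97) and median centring (0.72). With HIF2A siRNA 3 were above, PTGS2, IL1A and IL1B, and 4 below, CCL2, LIF, CXCL8 and NFKBIA (2.35% and 5.87% of all genes). These differences share the normoxic arrays and have no test.

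**Figure D3:**
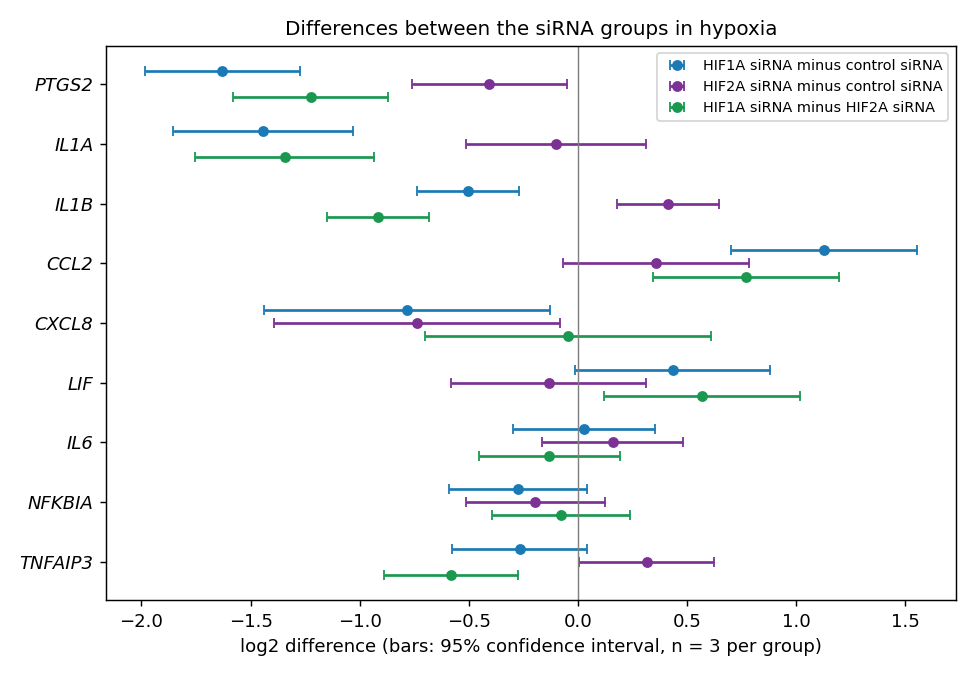
Log2 differences among the 3 hypoxic groups (x axis) for the 9 genes (y axis), as HIF1A siRNA minus control, HIF2A siRNA minus control and HIF1A siRNA minus HIF2A siRNA; points are differences of means and bars are 95% confidence intervals, n = 3 per group. For PTGS2, IL1A, IL1B and TNFAIP3 the interval of HIF1A minus HIF2A siRNA lies wholly below 0, at -1.22, -1.34, -0.92 and -0.58. For CCL2 and LIF it lies wholly above, at 0.77 and 0.57, though LIF was not called.

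Between HIF1A and HIF2A siRNA, 5 of the 9 genes were called: CCL2 higher and PTGS2, IL1A, IL1B and TNFAIP3 lower. Of all genes 0.899% were called higher and 8.53% lower (128 and 1214 genes). That split depended on scale, at 799 higher and 981 lower after quantile normalization, 530 and 1019 after cyclic loess and 654 and 1086 after median centring, and the median of all genes moved from -0.06 to 0.08 with the first. The total of 1342 also moved with single arrays, to 268 without HIF2A siRNA replicate 1, 306 without HIF2A siRNA replicate 3, 444 without HIF1A siRNA replicate 3, 784 to 884 without a normoxia replicate and 2557 without HIF1A siRNA replicate 2. Relative to that median, the quantile-normalized differences were -1.04 for PTGS2, -1.39 for IL1A, -0.94 for IL1B, -0.59 for TNFAIP3 and 0.90 for CCL2, each called. PTGS2, IL1A and IL1B kept their calls in all 21 alternatives tried. The median difference of the 9 genes was -0.13, against -0.06 over all genes.

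Between HIF1A and control siRNA, 4 were called, CCL2 higher and PTGS2, IL1A and IL1B lower, where 0.857% of all genes were called higher and 10.2% lower (122 and 1451; 726 and 1124 after quantile normalization, 545 and 1183 after cyclic loess, 509 and 1272 after median centring). The total of 1573 was 390 without hypoxic control replicate 1, 607 without HIF1A siRNA replicate 3, 795 without hypoxic control replicate 3, 1037 and 1017 without normoxia replicates 2 and 3, and 2648 without HIF1A siRNA replicate 2. Between HIF2A and control siRNA, limma called 0 of the 9. At an unadjusted p under 0.05 there were 4, namely PTGS2 (-0.41), CXCL8 (-0.74), IL1B (0.41) and TNFAIP3 (0.32). Over the whole array this comparison called 1 gene, EPAS1 itself, or 0.00703% of genes, and 502 had an unadjusted p under 0.05. The comparisons against control siRNA share the control arrays with each other. Calls among the 9, also those between the siRNAs, cannot be taken as independent of the choice of the genes.

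Over the 12 arrays, the levels of PTGS2 and CCL2 correlated at r = -0.89, PTGS2 and IL1A at 0.93, CCL2 and LIF at 0.85, IL1B and TNFAIP3 at 0.82 and CXCL8 and NFKBIA at 0.84, as a description of 12 arrays in 4 groups. Among 7116 genes of at least median level, those most like PTGS2 were IGFBP5 (r = 0.993), DEPP1 (0.992), NDNF (0.991), MXI1 (0.986) and VLDLR (0.986). IGFBP5, a binding protein of insulin-like growth factors, averaged 9.57 in normoxia, 11.51 in the hypoxic control, 10.23 with HIF1A siRNA and 11.17 with HIF2A siRNA. Those most like CCL2 were RRS1 (0.930), ACSS1 (0.928), MAP2K3 (0.928), ZMYND19 (0.921) and WDR4 (0.921). RRS1, a ribosome assembly factor, averaged 8.73, 7.54, 8.12 and 7.78 in the same order, and MAP2K3, a kinase that activates p38, 7.84, 7.06, 7.42 and 7.11.

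The pathways around the 9 genes were read from 10 lists, which name 169 genes other than the members, 143 of them measured. The lists were written with results of these data known, so their shares beside those of all genes are a description. Between HIF1A and HIF2A siRNA, 2 were called higher and 12 lower, or 1.4% and 8.39%, near the 0.899% and 8.53% of all genes. In hypoxia against normoxia, where 3.37% of all genes were called higher and 8.95% lower (480 and 1274; 946 and 1200 after quantile normalization, 1059 and 1289 after cyclic loess, 767 and 1438 after median centring), 8 were higher and 7 lower, or 5.59% and 4.9%. With HIF1A siRNA against control siRNA 3 were higher and 22 lower, or 2.1% and 15.4%, where 0.857% and 10.2% of all genes were. The counts of single lists rest on 10 to 19 genes each and stand against these same shares of all genes. With HIF2A siRNA 0 were called and 7 had an unadjusted p under 0.05. The median over the 143 genes lay between -0.05 and -0.00039 in these 4 comparisons. The lists' counts varied widely with single arrays: without hypoxic control replicate 1 the 25 calls of HIF1A siRNA against control became 7, and without HIF2A siRNA replicate 1 or 3 the 14 calls between the siRNAs became 4. Without hypoxic control replicate 3 the first count was 14 and without HIF1A siRNA replicate 3 it was 9; the second was 27 without HIF1A siRNA replicate 1, 5 without HIF1A siRNA replicate 3 and 8 without any normoxia replicate; and the 15 calls in hypoxia were 9 without normoxia replicate 1 and 8 without normoxia replicate 3. Of the list genes called between the siRNAs and named by rule, 4 kept their call whichever array was left out, PLA2G4A, CXCL16, TNIP1 and STAT3, though PLA2G4A (adjusted p = 0.0548) and STAT3 (0.103) lost it when only the 2 groups were fitted. The 3 genes higher with HIF1A siRNA than with control were TNFRSF12A (0.78), PYCARD (0.40) and CXCR3 (0.31), and each lost its call without some arrays (adjusted p up to 0.105, 0.162 and 0.177).

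Among the other genes of prostaglandin synthesis, PTGES and PTGS1 were called higher in hypoxia and lower with HIF1A siRNA than with control siRNA. Of 19 measured genes of prostaglandin synthesis and reception, 2 rose in hypoxia and 1 fell, 4 fell with HIF1A siRNA against control and 0 rose, and between the siRNAs 4 were lower and 1 higher. PTGES, which makes prostaglandin E2 from the product of PTGS2, measured 7.76, 7.98 and 7.83 in normoxia and 8.77, 9.14 and 8.75 in hypoxia, a rise of 1.03 (SE 0.14, adjusted p = 9.9e-04). It measured 8.0, 8.10 and 7.83 with HIF1A siRNA, lower than control siRNA (-0.91, adjusted p = 0.0029, but 0.0528 with only the 2 groups fitted), and 8.68, 8.52 and 8.33 with HIF2A siRNA. PTGS1, the constitutive cyclooxygenase, rose by 0.82 in hypoxia (adjusted p = 0.0015) and was lower with HIF1A siRNA (-0.70, adjusted p = 0.0058, but 0.076 with only the 2 groups fitted). Its level was low, with a mean of 5.55 in normoxia, where the lower quartile of gene means was 5.32. PLA2G4A, the phospholipase that frees arachidonic acid, measured 8.25, 7.87 and 7.90 in normoxia and 8.61, 8.30 and 8.54 in hypoxia, which was not called. With HIF1A siRNA it measured 7.13, 7.35 and 6.53, below normoxia too, and with HIF2A siRNA 8.35, 8.19 and 8.74, a difference between the siRNAs of -1.42 (SE 0.21, adjusted p = 0.0033). CBR1, a carbonyl reductase that acts on prostaglandin E2, was lower with HIF1A than with HIF2A siRNA (-0.78, adjusted p = 0.013), a call lost without some arrays (adjusted p up to 0.069), as were those of PTGES (-0.53, up to 0.139) and PTGS1 (-0.46, up to 0.138) in this comparison. PLA2G2A, a secreted phospholipase picked out after its value was seen, was the gene called higher (0.49, limma adjusted p = 0.040). Its level was low too, with means of 5.61 with HIF1A siRNA and 5.11 with HIF2A siRNA, around that lower quartile of 5.32. The PLA2G2A call was not followed with arrays left out. The receptor PTGER2 was lower in hypoxia (-0.64), a call lost without some arrays (adjusted p up to 0.145).

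**Figure D4:**
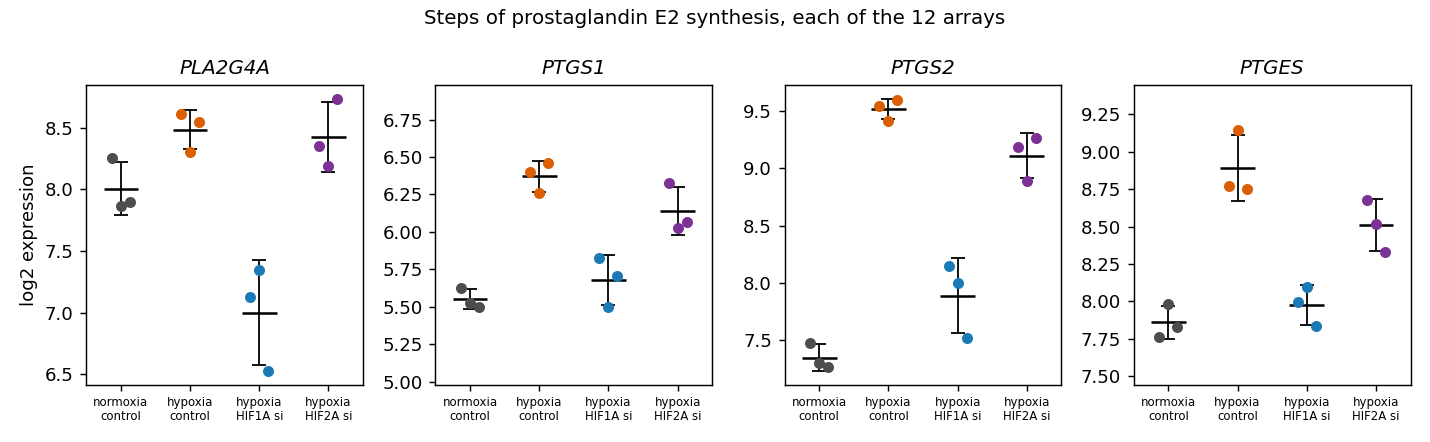
Log2 expression (y axis, its own range in each panel) of 4 genes on the route from membrane lipid to prostaglandin E2, picked for the plot after their values were seen, on each of the 12 arrays by group (x axis); points are arrays, bars the mean and SD of 3. The HIF1A siRNA arrays lie below the hypoxic control arrays for every gene, and for PLA2G4A they also lie below normoxia.

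The IL-1 receptor IL1R1 was lower in hypoxia. Of 16 genes of the IL-6 family, 6 were called lower with HIF1A siRNA than with control siRNA, calls lost with only the 2 groups fitted. Of 13 measured genes of the IL-1 system 0 rose and 2 fell in hypoxia. IL1R1, the receptor of IL1A and IL1B, was at 7.16, 6.98 and 6.98 in normoxia and 5.96, 5.76 and 6.04 in hypoxia, a log2 difference of -1.12 (SE 0.16, adjusted p = 0.0018). Its means with HIF1A and HIF2A siRNA were 5.98 and 5.99, so it stayed low in all 3 hypoxic groups, unlike IL1A. The adaptor MYD88 was lower (-0.50), a call lost without some arrays (adjusted p up to 0.132). Between the siRNAs 0 genes of this list were called with limma, with 2 at an unadjusted p under 0.05. Of 16 measured genes of the IL-6 family and its signalling, 6 fell with HIF1A siRNA against control and 0 rose, among them the oncostatin M receptor OSMR (-1.21, adjusted p = 0.0075), the transcription factor STAT3 (-0.81, adjusted p = 0.0018), the kinase JAK2 (-1.07) and the LIF receptor LIFR (-1.01). The other calls were PIAS3 (-0.49, limma adjusted p = 0.049) and SOCS3 (-0.46, adjusted p = 0.038), named after their values were seen. With only the 2 groups fitted OSMR (adjusted p = 0.0888), STAT3 (0.0557), JAK2 (0.111) and LIFR (0.124) were not called. In that fit the genes called across all lists were CXCL16, PLA2G4A and TNIP1, so PIAS3 and SOCS3 were not called either. JAK2 and LIFR lost their call without hypoxic control replicate 1 or HIF1A siRNA replicate 3, and LIFR also without hypoxic control replicate 3 (adjusted p up to 0.087 and 0.117). STAT3 measured 10.61, 10.58 and 10.54 in the hypoxic control and 9.92, 9.86 and 9.53 with HIF1A siRNA. Normoxia, at 10.50, 10.44 and 10.52, lay just below the hypoxic control, and STAT3 with HIF1A siRNA lay below both groups. OSMR was at 9.56, 9.46 and 9.55 in normoxia, 10.45, 10.11 and 10.38 in hypoxia, 9.59, 9.11 and 8.58 with HIF1A siRNA and 10.04, 9.83 and 10.29 with HIF2A siRNA.

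Among NF-kB subunits, kinases and inhibitors, with 16 measured, TNIP1 was the gene called in hypoxia. TNIP1, a partner of A20 that restrains NF-kB, was at 7.74, 7.77 and 7.76 in normoxia and 8.91, 8.85 and 8.81 in hypoxia, a rise of 1.10 (SE 0.11, adjusted p = 2.3e-04). It was at 8.13, 7.78 and 7.67 with HIF1A siRNA and 8.91, 8.85 and 8.78 with HIF2A siRNA, a difference of -0.99 (SE 0.11, adjusted p = 9.4e-04). No TNIP1 array with HIF1A siRNA reached those of the other 2 hypoxic groups. With HIF1A siRNA against control siRNA 4 genes of this list were lower and 0 higher: TNIP1 (-1.0), REL (-0.88), CYLD (-0.83) and RELA (-0.51), the last named after its value was seen. REL and CYLD lost their calls without some arrays (limma adjusted p up to 0.188 and 0.12), and the RELA call was not followed with arrays left out. With only the 2 groups fitted REL, CYLD and RELA were not called. Of 12 other NF-kB targets, 3 were lower with HIF1A siRNA than with control, each only while certain arrays were kept: the adhesion molecule ICAM1 (-0.53; adjusted p = 0.075 without hypoxic control replicate 1), the survival gene BCL2L1 (-0.58; up to 0.072) and IER3 (-0.72; up to 0.077). In hypoxia against normoxia CD83 was lower (-0.70, limma adjusted p = 0.0012) and ICAM1 higher (0.48, adjusted p = 0.019). The ICAM1 call was lost without some arrays (adjusted p up to 0.069).

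Among the chemokines related to CCL2 and CXCL8, CXCL16 was called higher in hypoxia and lower with HIF1A siRNA, as were PTGES and PTGS1. CXCL16, a chemokine made as a membrane protein, measured 6.64, 6.64 and 6.53 in normoxia, 7.46, 7.23 and 7.18 in hypoxia, 6.03, 6.30 and 6.0 with HIF1A siRNA and 7.33, 7.15 and 7.11 with HIF2A siRNA. It rose by 0.69 in hypoxia (adjusted p = 0.0038) and was lower with HIF1A than with HIF2A siRNA (-1.09, SE 0.12, adjusted p = 5.7e-04) and than with control siRNA (-1.18, adjusted p = 3.0e-04). Of the 13 CXC genes measured it was the gene called between the siRNAs, and of 12 CC chemokines and receptors 0 were called with limma (4 had an unadjusted p under 0.05). Between the siRNAs, 1 of 15 TNF ligands and receptors was called, the cytokine LTA (0.49), and 1 of 17 AP-1 and immediate early genes, FOSL2 (-0.59); both lost their calls without some arrays (adjusted p up to 0.145 and 0.081). Of 10 genes of AU-rich element mRNA decay 0 were called with limma and 3 had an unadjusted p under 0.05. MAPKAPK2, a kinase that stabilizes cytokine mRNAs, was lower in hypoxia (-0.71, adjusted p = 0.0069), as was EGR3, an immediate early gene (-0.72, adjusted p = 0.0073).

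**Figure D5:**
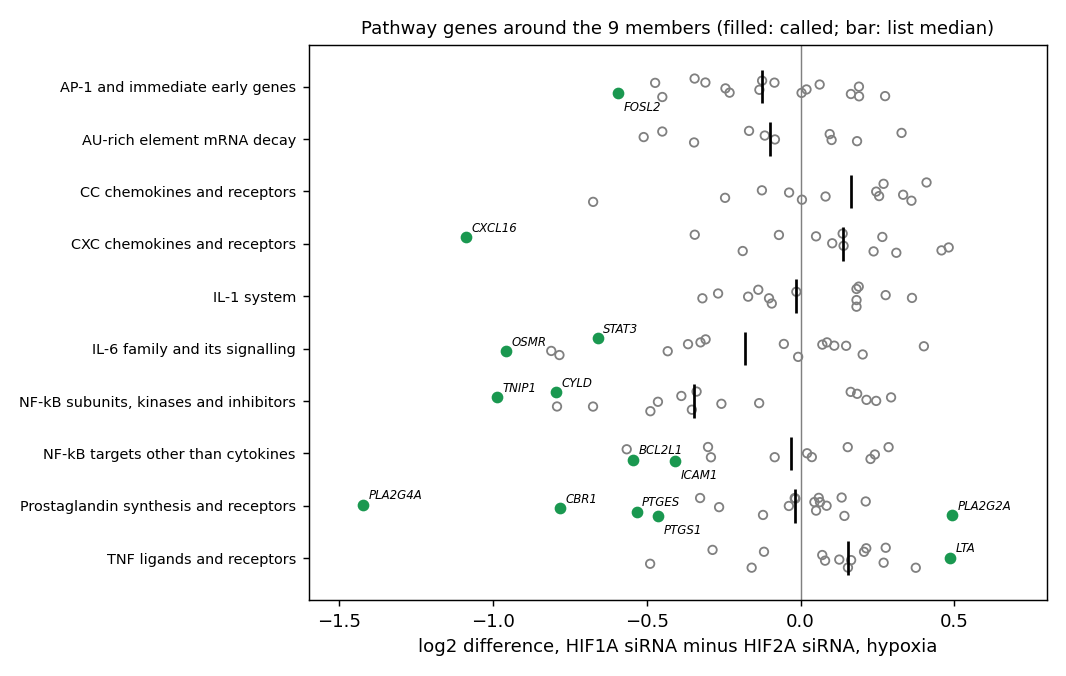
Log2 difference between HIF1A and HIF2A siRNA in hypoxia (x axis) for the measured genes of the 10 pathway lists (y axis); each circle is a gene, filled and named where called, and the bar is the median of the list. Called genes run from PLA2G4A at -1.42 to PLA2G2A at 0.49, and the medians lie between -0.35 and 0.16.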

How the data were processed

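The submitters gave 1 value per probe set and array for 22011 probe sets on 12 Affymetrix exon arrays. Levels as deposited were read as log2 expression, a base inferred from their range, which the file leaves unnamed; per the submitters' processing notes, Partek and genome build hg18 were used. How background and array scale were handled, and whether probe sets were filtered, is not given in the sources used here. The annotation pairs 14432 probe sets with 1 symbol, 2408 with several and 5171 with none, which gave 14232 genes; 197 had several probe sets, and the brightest on average was used.

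Group means were fitted over all 12 arrays with limma 3.58.1 (R 4.3.3, data.table version 1.17.8), with eBayes and Benjamini-Hochberg adjustment over 14232 genes. The script was tested on simulated data. Plots used matplotlib 3.10.9 and Python 3.11.15. The 9 members and the pathway lists were chosen with earlier results of these data known. Genes named are the members, HIF1A, EPAS1, up to 3 called genes with the largest change per list and comparison, and the 5 most like PTGS2 and CCL2 by Pearson r. Alternatives were 3 rescalings of the arrays, the mean of a gene's probe sets, the replicate number as a block, a fit of only the 2 groups, a filter on dim genes, array weights, a trended robust prior and leaving out each array. The number of arrays limits the precision.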

Additional observations from a re-analysis of the deposited data

How the results depend on the processing

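Counts of members and of pathway list genes that moved by over 1.5 times were these. Pathway list genes called in hypoxia against normoxia were 15, with 24 after quantile normalization, 25 after cyclic loess and 8 to 21 when 1 array was left out. The same count was 25 for HIF1A against control siRNA, with 3 when only the 2 groups were fitted, 15 with array weights and 7 to 26 without 1 array, and 14 between the siRNAs, with 2 for only the 2 groups, 23 without dim genes and 4 to 27 without 1 array. Members called fell from 4 to 2 (HIF1A against control) and from 5 to 3 (between the siRNAs) with only the 2 groups, where 3 arrays a group alone estimate the spread; without 1 array they were 4 and 3 to 5. Members at least 1.5-fold from normoxia with HIF1A siRNA were 2, CXCL8 and NFKBIA, both below. With quantile normalization or cyclic loess the count was 1, PTGS2 above normoxia, and without 1 array it was 1 to 3. The filter on dim genes removes IL6.

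Uncalled differences changed sign as follows, and the cause was not tested. Between the siRNAs, CXCL8 was 0.21 with quantile normalization and with cyclic loess, 0.0905 with median centring, 0.0514 with array weights and -0.29 to 0.25 without 1 array. NFKBIA was 0.19 (quantile normalization and cyclic loess), 0.0574 (median centring) and -0.17 to 0.0158. IL6 was 0.0059 (median centring) and 0.0054 (mean of both probe sets). For HIF1A against control siRNA, NFKBIA was 0.0005 (quantile normalization), and IL6 -0.0334 (cyclic loess) and -0.0819 to 0.16 without 1 array. For HIF2A against control siRNA, LIF was 0.0165 with array weights and IL1A -0.28 to 0.0895 without 1 array. HIF1A in hypoxia was 0.0176 (quantile normalization), 0.0885 (cyclic loess) and -0.19 to 0.0357 without 1 array. EPAS1 with HIF1A siRNA against normoxia was 0.14 (quantile normalization) and 0.13 (cyclic loess).

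Whether the replicate numbers pair the samples is not said in the labels. Deviations of same-numbered arrays correlated at -0.49 to 0.60, over 0.1 in 6 of 18 pairs of arrays. Those of differently numbered arrays correlated at -0.64 to 0.62, over 0.1 in 14 of 36 pairs, and 4 of 12 arrays correlated best with their own number. With so few arrays a group these values cannot decide whether samples were paired. With the number as a block, calls between the siRNAs went from 1342 to 1101, for HIF1A against control from 1573 to 1266 and in hypoxia from 1754 to 1720; of the 9 genes, CCL2 lost its call between the siRNAs (adjusted p = 0.0543), and 4 stayed called. Calls over all genes fell to 127 between the siRNAs and 137 for HIF1A against control when only the 2 groups were fitted. Over all genes, leaving out 1 array gave 268 to 2557 calls between the siRNAs, 390 to 2648 for HIF1A against control and 806 to 2465 in hypoxia (833 without hypoxic control replicate 2, 1128 without replicate 3, and 806, 1131 and 836 without normoxia replicates 1, 2 and 3). Array weights gave 3739 in hypoxia and 791 for HIF1A against control, and the filter on dim genes 2207 between the siRNAs. The 1 call of HIF2A against control became 4 with quantile normalization or cyclic loess and 3 with median centring.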
